A study of Mus musculus with 8 samples.

Results

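The genes described here were the 6 zinc finger factors Glis1, Glis2, Glis3, Gli1, Gli2, and Gli3, with the hedgehog target genes Ptch1 and Hhip. They were taken by symbol from a count table of 54532 mouse genes, and all 8 symbols matched 1 gene each. Glis3 was selected on its lower count in treated tumors of this same comparison, and the other genes were added for their place in the family or the pathway. The values of these 8 genes between the groups are therefore given as a description, and nothing is supported with them. RNA was sequenced from 8 subcutaneous tumors of 4T1-FLuc, a mouse triple-negative breast cancer (TNBC) line that carries firefly luciferase, grown in female BALB/cJ mice that were 6 weeks old when injected. The labels name the line as 4T1 and call the tumors xenografts, although the line and the host are both of mouse origin. In the saline group, labelled as a PBS control, 4 tumors were sequenced. In the mAb-DXd/IMQ group, labelled HumCD276-Dxd/IMQ, 4 tumors were sequenced from mice that received 5 intravenous courses, each of 16 mg/kg, spaced 4 days apart. This agent is a humanized CD276 antibody that carries DXd, a topoisomerase I inhibitor, and IMQ, an agonist of Toll-like receptors 7 and 8. Tumors were collected at the study endpoint, and they held tumor cells together with host cells. The paper reports that mAb-DXd/IMQ tumors were on average far smaller than saline tumors at the endpoint. It also reports extensive cancer cell death in treated tumors. The part of tumor size or cell death in the levels given here was not tested.

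Hedgehog ligands bind the receptor PTCH1, which otherwise holds back the membrane protein SMO. Active SMO acts at the primary cilium, where it releases GLI2 and GLI3 from the inhibitor SUFU, and GLI proteins then switch on target genes that include Gli1, Ptch1, and Hhip. PTCH1 and HHIP bind the ligands and so dampen the signal that induces them. The GLIS factors share the zinc finger type of the GLI proteins and bind related DNA sequences, but they are not established transducers of hedgehog ligands. GLIS3 is known for its part in pancreatic beta cells and the thyroid, and GLIS2 for its part in the kidney.

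Total counts ranged from 45019927 to 69582375 under saline and from 34591912 to 51625237 under mAb-DXd/IMQ. The group difference in total counts did not pass a two-sided exact permutation test (p = 0.171), for which 0.0286 is the smallest p that 4 against 4 tumors allows. Levels are given in CPM, which are counts scaled to the library size, with TMM factors between 0.939 and 1.07. At these depths, 3 counts corresponded to 0.0439 to 0.0843 CPM, a floor that covers counting error only. In bulk tumors, fewer cells of a type and less RNA per cell cannot be told apart.

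Glis3, an activator and repressor of transcription of the GLIS family, was lower in mAb-DXd/IMQ tumors. Its level was 89.2, 102, 87.1, and 91.5 CPM in saline replicates 1 to 4 and 34.9, 50.6, 40, and 42.7 CPM in mAb-DXd/IMQ replicates 1 to 4. The groups did not overlap, and the highest treated tumor, replicate 2, stood well below the lowest saline tumor. Group means were 92.4 ± 6.56 CPM (SD, n = 4) and 42.1 ± 6.54 CPM (SD, n = 4), a ratio of 0.455. On the log2 scale the difference was -1.13 with a standard error of 0.12.

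Glis2, the family member that is linked to kidney disease in mice and humans, had 85.1, 77.1, 78.5, and 73 CPM under saline against 68, 77.9, 101, and 86.4 CPM under mAb-DXd/IMQ. The treated tumors lay on both sides of the saline values, with replicate 3 the highest of all 8 tumors. The log2 difference was 0.09 (SE 0.13), and without mAb-DXd/IMQ replicate 3 it was -0.02. Glis1, a factor used in reprogramming of somatic cells, had few counts, with 199 over the saline tumors and 128 over the treated tumors, though every tumor was above the floor. It had 1.07, 0.339, 0.77, and 1.29 CPM under saline against 0.413, 1.03, 0.808, and 0.646 CPM under mAb-DXd/IMQ. These groups overlapped throughout, and the log2 difference of -0.27 was smaller than its standard error of 0.46. That difference was -0.53 without saline replicate 2 and 0 without saline replicate 4.

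Hhip, which encodes a membrane protein that binds hedgehog ligands and is itself a target of the pathway, was also lower in the treated tumors. It had 228, 375, 323, and 323 CPM under saline against 176, 186, 149, and 140 CPM under mAb-DXd/IMQ. Saline replicate 1 was the lowest of its group, yet the groups did not overlap. Group means were 312 ± 61.6 CPM (SD, n = 4) and 163 ± 21.7 CPM (SD, n = 4), a ratio of 0.522, and the log2 difference was -0.94 (SE 0.16).

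Ptch1, the receptor gene and a common readout of the pathway, gave almost the same mean in both groups. It had 26.8, 24.2, 23.7, and 22.6 CPM under saline against 23.7, 23.1, 26.8, and 23.5 CPM under mAb-DXd/IMQ. The groups covered nearly the same range, and the log2 difference was 0 with a standard error of 0.11. With an offset for gene length, Ptch1, the longest gene of the 8, had a log2 difference of 0.11. The 2 hedgehog targets thus had different values in the same tumors, with Hhip at about the ratio of Glis3 and Ptch1 at a ratio of 0.998.

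Gli1, the other target gene that serves as a readout, was counted only 155 times in all. It had 13, 1, 12, and 12 counts under saline against 15, 20, 71, and 11 counts under mAb-DXd/IMQ. In CPM these were 0.264, 0.0226, 0.215, and 0.176 against 0.309, 0.428, 1.55, and 0.309. The groups did not overlap, but saline replicate 2 was below the floor of 3 counts, and mAb-DXd/IMQ replicate 3 alone held 71 of the 117 treated counts. The log2 difference of 1.91 (SE 0.72) was 1.02 without that tumor. Gli1 counts also carry a doubt of position, because 62 bases of its exons lie opposite exons of Arhgap9, which had 11297 counts, and whether counting used strand is not given in the sources used here.

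Gli2, the main activator among GLI proteins, had 1.32, 1.33, 2.2, and 1.42 CPM under saline against 1.38, 1.11, 3.17, and 0.731 CPM under mAb-DXd/IMQ. The treated tumors spread to both sides of the saline group, and replicate 3 was again the highest. The log2 difference was 0.03 (SE 0.43), and it was -0.54 without that tumor. Gli3, which acts mostly as a repressor when the pathway is silent, had 49.7, 36.8, 44.9, and 38.8 CPM under saline against 35.4, 39, 47.2, and 39.2 CPM under mAb-DXd/IMQ. Its groups overlapped almost fully, with a log2 difference of -0.08 (SE 0.13). That difference was -0.17 without mAb-DXd/IMQ replicate 3 and 0 without saline replicate 1.

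**Figure D1:**
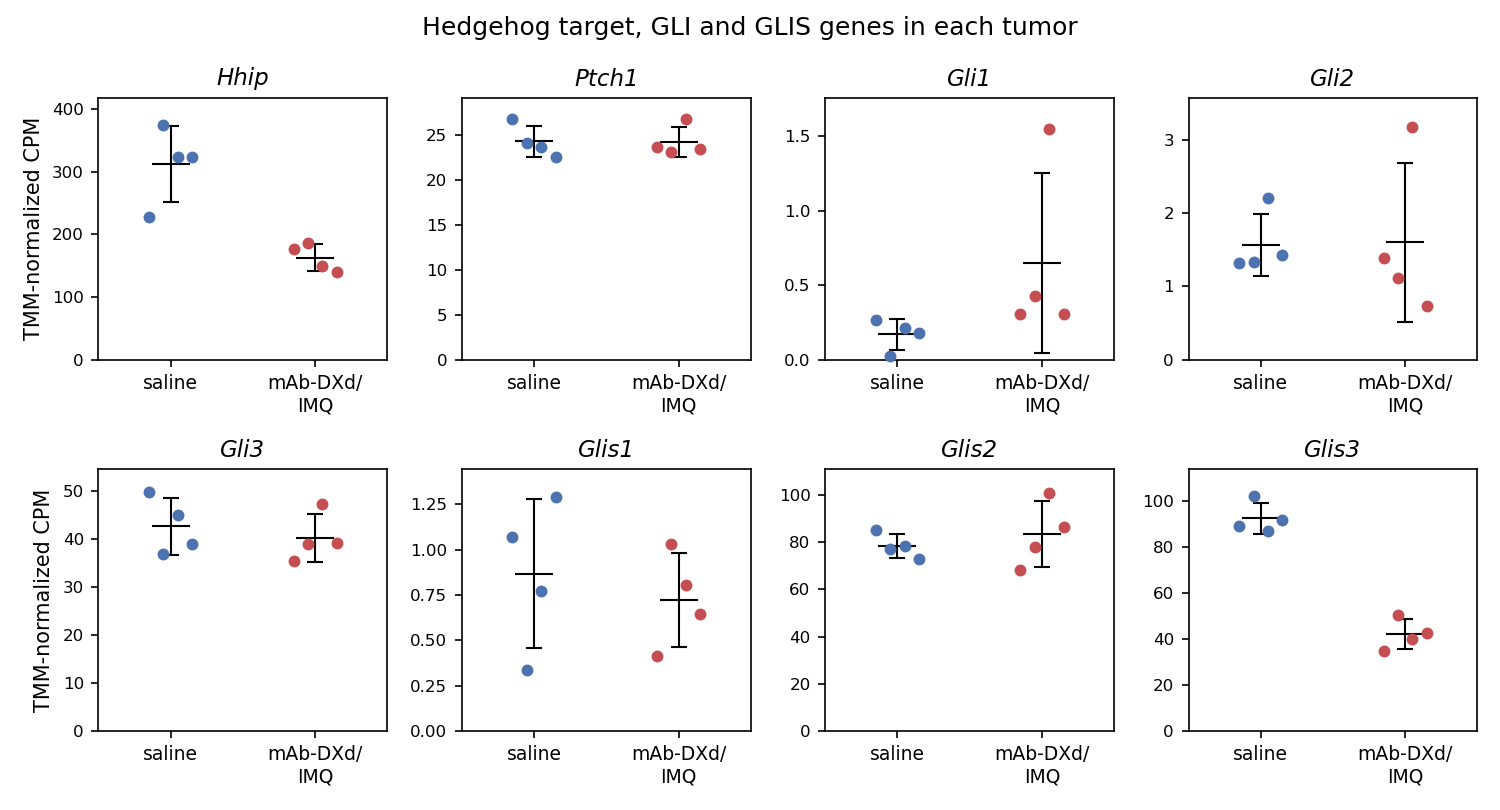
TMM-normalized CPM (vertical axes, each from 0) of the 8 genes in 4 saline tumors (blue points) and 4 mAb-DXd/IMQ tumors (red points), with the group mean and SD in black. The Glis3 points separate, with saline tumors at 87.1 CPM or above and mAb-DXd/IMQ tumors at 50.6 CPM or below, while the Ptch1 points cover the same range.

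All 8 genes passed the filter on low counts. With thresholds of 0.05 on the false discovery rate (FDR) of edgeR's quasi-likelihood test and 0.58 on the size of the log2 fold change, 197 of the 18511 tested genes were called, which is 1.06% of them. The calls comprised 101 higher genes, 0.546%, and 96 lower genes, 0.519%. Of the 8 genes 2 were past these thresholds, Glis3 and Hhip. Nothing is read from that count, because this comparison chose Glis3. Groups that did not overlap with the treated tumors lower were found for Glis3 and Hhip, and for 7.10% of all tested genes. The groups of Gli1 did not overlap either, with the treated tumors higher. The share of all tested genes in that direction is not given here, so nothing is read from it.

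For Glis3 and Hhip the fit was repeated 8 times, each time leaving a different tumor out. The log2 difference of Glis3 then lay between -1.24 and -1.06. That of Hhip lay between -1.07 and -0.84, and Hhip kept its place past the thresholds in only 2 of the 8 fits. Over all tested genes the log2 difference fell with gene length (Spearman correlation -0.212), and Glis3 and Hhip, at 8842 and 9076 bases, are long genes. With an offset for gene length the correlation was -0.0339, and the log2 difference was -1.07 for Glis3 and -0.86 for Hhip. Hhip was not past the thresholds with that offset, nor with a block for the replicate number.

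Levels between genes were compared as RPKM, which is CPM divided by gene length in kilobases. In saline tumors Hhip was the highest at 34.4 ± 6.78 RPKM (SD, n = 4), followed by Glis2 at 17.9 ± 1.15, Glis3 at 10.5 ± 0.742, Gli3 at 4.44 ± 0.612, and Ptch1 at 1.71 ± 0.126. The tumor ranges of neighbours in that order did not overlap from Hhip down to Glis1. Glis1 at 0.238 ± 0.113 RPKM and Gli2 at 0.228 ± 0.062 RPKM overlapped, and Gli1 was the lowest at 0.0339 ± 0.0209 RPKM. Among all tested genes, the mean level per length in saline tumors stood at percentile 91.4 for Hhip, 71.4 for Glis3, 36.2 for Ptch1, and 0.643 for Gli1.

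In mAb-DXd/IMQ tumors the order of the upper genes was less distinct. Glis2 at 19.1 ± 3.24 RPKM (SD, n = 4) and Hhip at 18 ± 2.39 RPKM overlapped, and so did Glis3 at 4.76 ± 0.739 RPKM and Gli3 at 4.19 ± 0.522 RPKM. Glis3 moved from percentile 71.4 to percentile 54.2 of all tested genes and Hhip from 91.4 to 82.6. Ptch1 was at percentile 35.7, close to its place in saline tumors. Of the summed RPKM of the 6 GLI and GLIS factors, Glis3 held 28.6%, 34.6%, 29.8%, and 32.7% under saline against 16.8%, 20.3%, 13.5%, and 16.7% under mAb-DXd/IMQ. Glis2 held the greatest share in every tumor, with a mean of 53.8% under saline against 66.6% under mAb-DXd/IMQ.

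**Figure D2:**
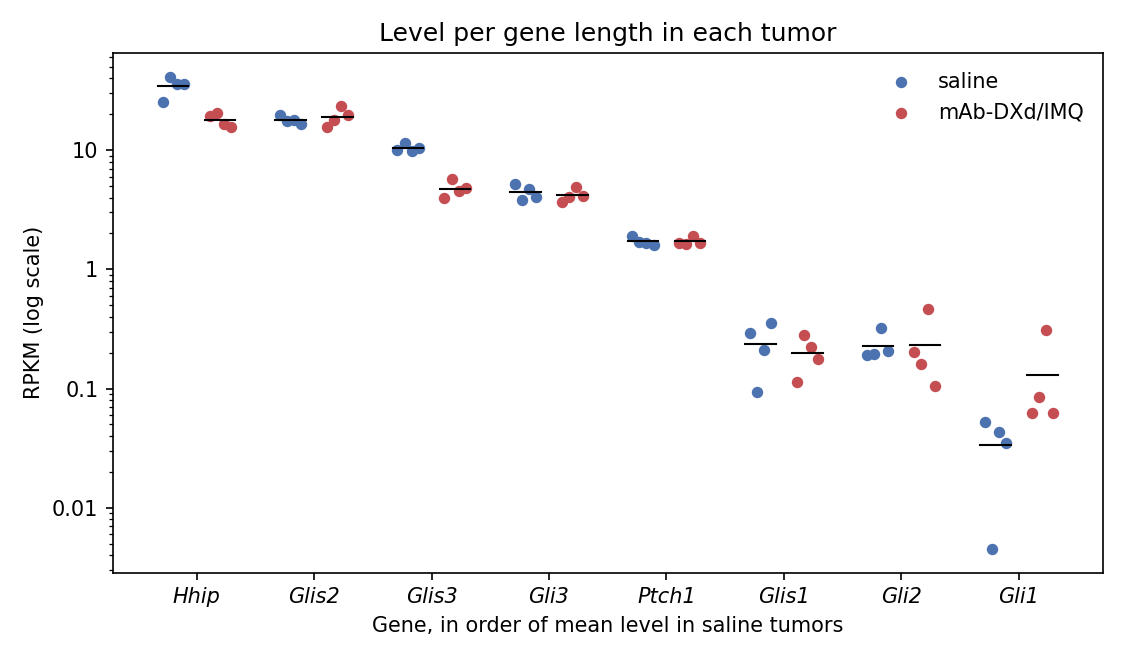
RPKM (log-scaled vertical axis) of the 8 genes, ordered by their mean in saline tumors, with 4 saline tumors (blue) and 4 mAb-DXd/IMQ tumors (red) per gene and black lines at the group means. Hhip is the highest gene in saline tumors at a mean of 34.4 RPKM, and Glis1, Gli2, and Gli1 all lie below 0.5 RPKM in every tumor.

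By the coordinates of the table, which follow GRCm38, Glis3 (ENSMUSG00000052942) lies at chr19:28258851-28680077 on the minus strand and Hhip (ENSMUSG00000064325) at chr8:79965851-80058006 on the minus strand. Genes that lie within or partly across the span of Glis3 were barely counted, with 115 counts on 4933413C19Rik and 15 on D930032P07Rik against 27442 on Glis3, and neither shared exon bases with it. Glis2 is less separate, since 455 of its exon bases lie opposite exons of Pam16, which had 7148 counts. Of all 100-base windows of the annotated transcripts, 0% were shared with another gene for Glis3, 0.838% for Hhip, and 7.62% for Glis2.

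The promoters of Glis3 and Hhip are shown because these were the 2 genes of the 8 that were lower together. RefSeq promoters matched 6 of the 8 genes on GRCm38.p6, and Glis2 and Gli1 had no entry. The GLI motif GACCACCCA and the GLIS motif TGGGGGGT were searched on both strands. Neither was in any of the 6 promoters of 300 bases, and 0.253% and 1.53% of 32851 promoters of that length held them. That says only that these letters are not in these windows, so no base is in capitals. Both promoters are rich in G and C, at 76.3% for Glis3 and 73.7% for Hhip against a median of 52.7% over all promoters, with 32 and 30 CpG dinucleotides against a median of 7. This trait is shared by members whose groups overlapped, since Glis1 had 81.3% and 47 CpG, Ptch1 76.3% and 47 CpG, and Gli3 71% and 39 CpG. They lie at chr19:28680028-28680327 and chr8:80057959-80058258 in GRCm38.p6, both on the minus strand.
Glis3: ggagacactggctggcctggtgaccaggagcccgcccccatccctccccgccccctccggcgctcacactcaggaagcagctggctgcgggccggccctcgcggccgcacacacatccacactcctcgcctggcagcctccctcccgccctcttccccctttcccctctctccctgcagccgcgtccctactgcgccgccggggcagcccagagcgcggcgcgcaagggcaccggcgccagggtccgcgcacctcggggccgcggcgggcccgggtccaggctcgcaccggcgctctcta
Hhip: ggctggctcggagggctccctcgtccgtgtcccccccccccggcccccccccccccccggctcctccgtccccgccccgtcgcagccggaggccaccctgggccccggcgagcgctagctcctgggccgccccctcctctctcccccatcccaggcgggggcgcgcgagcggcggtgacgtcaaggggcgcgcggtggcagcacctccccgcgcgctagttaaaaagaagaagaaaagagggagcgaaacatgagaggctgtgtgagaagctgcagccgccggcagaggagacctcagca

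The rest of the hedgehog pathway was described from a list of 51 further genes, of which 47 passed the filter. Of these 47, 2 were called lower and 0 higher, beside 96 lower and 101 higher of all 18511 tested genes. Negative log2 differences were found for 32 of the 47, beside 8768 of 18511 over all tested genes. The median log2 difference of the list was -0.16, beside 0.02 over all tested genes, and 17 of the 47 had an unadjusted p under 0.05 in edgeR's test, beside 3503 of 18511 genes overall.

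Shh, the best known ligand, had 0 counts under saline against 1 count under mAb-DXd/IMQ, and it was not tested. Ihh, the ligand of cartilage and gut, had 38 and 27 counts in the 4 saline and 4 treated tumors. Dhh, the ligand of Schwann cells and testis, was the most abundant of the 3 ligands at 0.889 ± 0.193 CPM (SD, n = 4) under saline against 1.19 ± 0.722 CPM (SD, n = 4) under mAb-DXd/IMQ, with a log2 difference of 0.42 (SE 0.49) and an FDR of 0.69. That difference was 0.01 without mAb-DXd/IMQ replicate 3 and 0.74 without mAb-DXd/IMQ replicate 1. Of the 6 tested genes for ligands and their release, 0 were called in edgeR's test, in DESeq2 or in limma-voom, and 1 had an unadjusted p under 0.05. Over all tested genes, 1.06% were called in edgeR's test, and 3503 of 18511 had an unadjusted p under 0.05 in it.

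Among receptors, Smo, which passes the signal across the membrane, was well counted at 150 ± 6.88 CPM (SD, n = 4) under saline against 128 ± 17.9 CPM (SD, n = 4) under mAb-DXd/IMQ (log2 difference -0.23, FDR 0.321). Boc, a co-receptor for the ligands, had the highest log2 difference of the list at 1.36 (SE 0.51, FDR 0.184), which was 2.05 without saline replicate 2 and 1.03 without saline replicate 1. It had 3.04, 29.5, 9.82, and 12.4 CPM under saline against 39.4, 46.2, 22.1, and 33 CPM under mAb-DXd/IMQ. Saline replicate 2 lay among the treated values, so the groups overlapped. Cdon, the related co-receptor, had a log2 difference of -0.42 (FDR 0.586) and ranged from 32.4 to 175 CPM within the saline group alone. Gas1, a further co-receptor, differed by -0.06 (FDR 0.954).

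Of 25 transducers, 1 was called lower and 0 higher, beside shares of 0.519% lower and 0.546% higher over all tested genes. Prkacb, a catalytic subunit of protein kinase A, which marks GLI proteins for processing, fell from 209 ± 9.45 CPM (SD, n = 4) to 132 ± 20.1 CPM (SD, n = 4), with a log2 difference of -0.67 and an FDR of 0.0306 in edgeR's test. Its values were 213, 220, 197, and 207 CPM against 153, 144, 110, and 120 CPM. The groups did not overlap, but the call held in 1 of the 8 fits that each left out a tumor, and not with an offset for gene length (-0.59, FDR 0.0886 in edgeR's test). Sufu, the inhibitor that binds GLI proteins, had 59.8, 60.4, 60.2, and 55.3 CPM in saline tumors and 46.7, 44.1, 54.2, and 48.2 CPM in treated tumors. These groups also stood apart, yet the log2 difference of -0.29 had an FDR of 0.154 in edgeR's test and was below the fold change limit. Kif7, the kinesin that organizes the ciliary tip, had the highest log2 difference among transducers at 0.57 (FDR 0.145).

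Of 11 tested further targets, 1 was called lower and 0 higher, beside 0.519% lower and 0.546% higher over all tested genes. Bcl2, an inhibitor of apoptosis, fell from 95.1, 126, 90.1, and 107 CPM in saline tumors to 60.1, 74.7, 43.3, and 56.7 CPM in mAb-DXd/IMQ tumors. The groups did not overlap, and the log2 difference was -0.83 with an FDR of 0.0429 in edgeR's test. The call held in 2 of the 8 fits that each left out a tumor, and not with an offset for gene length (-0.75, FDR 0.0818 in edgeR's test). Foxl1, a forkhead factor of the gut mesenchyme, had the lowest log2 difference of the list at -0.92 (SE 0.29, FDR 0.121 in edgeR), and DESeq2 gave it an adjusted p of 0.0258. Of all 11 tested targets, 6 had negative and 5 positive log2 differences, beside 8768 negative of 18511 over all tested genes.

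**Figure D3:**
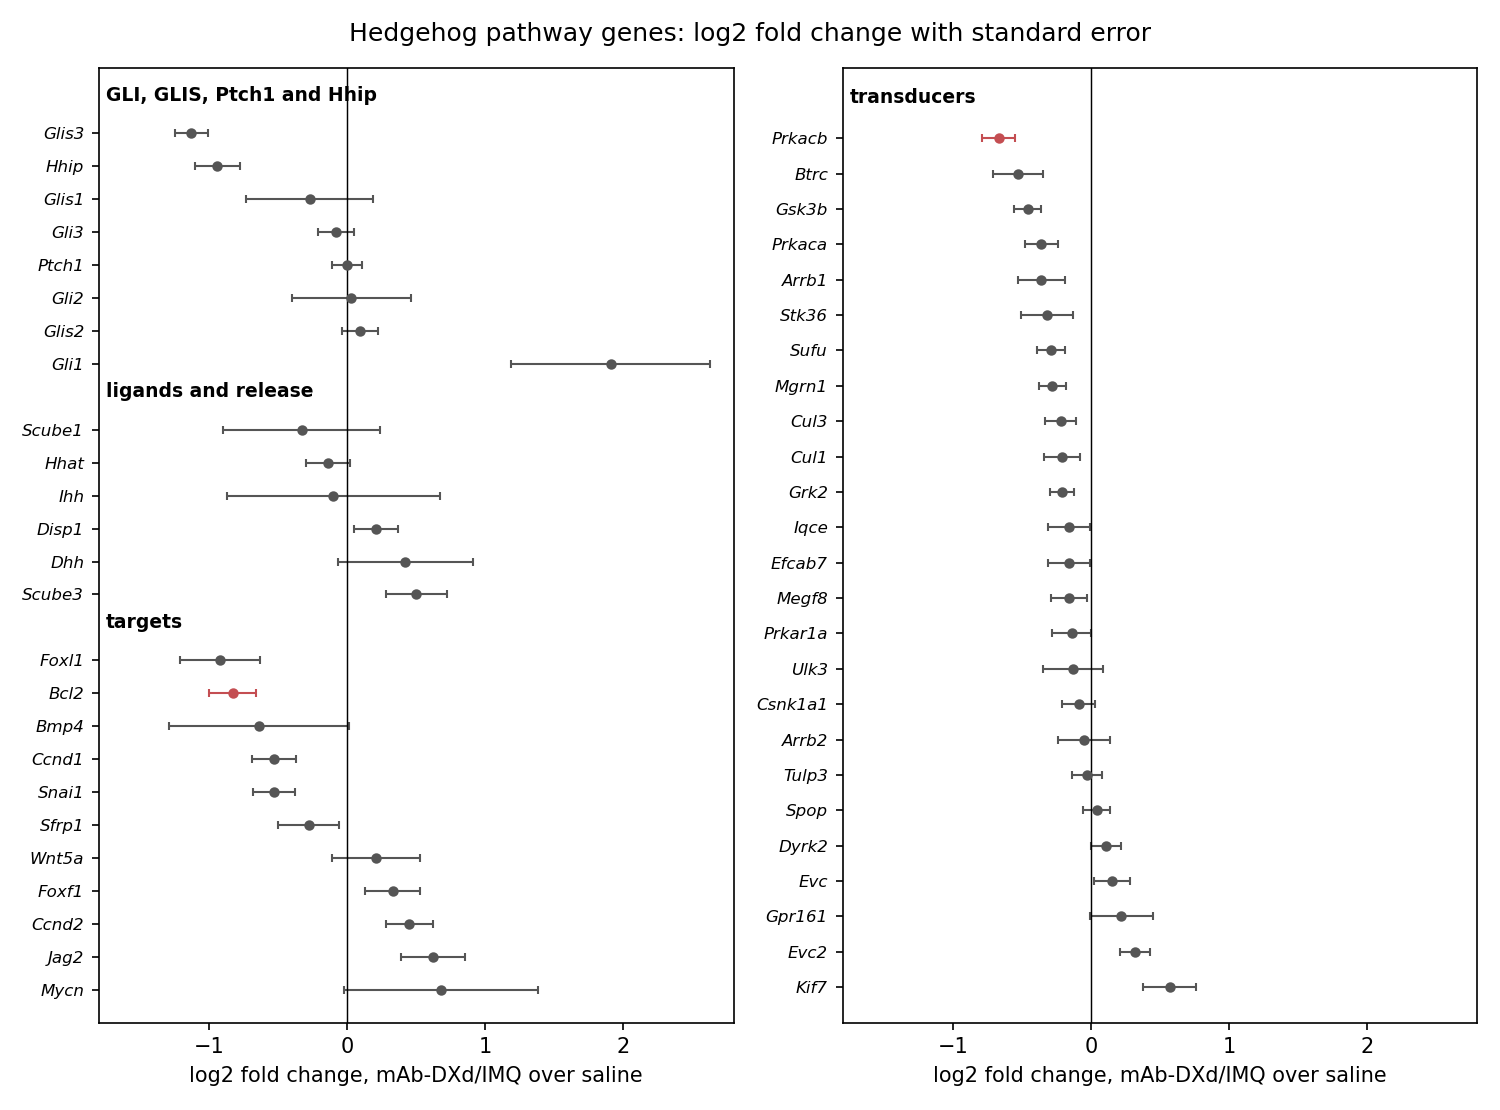
Log2 fold change of mAb-DXd/IMQ over saline (horizontal axes) with its standard error for the 8 genes and the tested ligand, transducer, and further target genes of the hedgehog pathway, with receptor genes not drawn, from edgeR over 4 tumors per group. Red points mark pathway genes past the thresholds, which are Bcl2 at -0.83 and Prkacb at -0.67, and the 8 genes, with Glis3 at -1.13, are not marked.

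The pathway needs the primary cilium, and 26 of 26 cilium genes passed the filter. None was called in edgeR's test, in DESeq2 or in limma-voom, beside 1.06% of all tested genes in edgeR's test. An unadjusted p under 0.05 in edgeR's test was found for 4 of the 26, beside 3503 of 18511 over all tested genes. Their median log2 difference was -0.12, with 19 of 26 negative, beside 8768 of 18511 over all tested genes. The values ran from -0.49 for Dync2h1 (FDR 0.138), the motor that carries cargo back to the cell body, to 0.27 for Tctn2 (FDR 0.289), a protein of the transition zone. With a tumor left out, the median of the list lay between -0.168 (without mAb-DXd/IMQ replicate 2) and -0.065 (without mAb-DXd/IMQ replicate 3).

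Known partners and targets of GLIS factors and the related ZIC genes made a list of 15, of which 7 passed the filter. In edgeR's test and in limma-voom 0 were called, beside 1.06% of all tested genes in edgeR's test. DESeq2 called 1 of the 7 beside 784 genes in all. An unadjusted p under 0.05 in edgeR's test was found for 4 of the 7, beside 3503 of 18511 over all tested genes. Ins1, Ins2, and Neurog3, which GLIS3 helps to control in the pancreas, had 0 counts in every tumor. Mafa, a beta cell factor, had the lowest log2 difference of the list at -1.01 (FDR 0.0979 in edgeR, adjusted p 0.0129 in DESeq2), with 12.7, 5.33, 8.63, and 5.9 CPM under saline against 3.34, 4.37, 3.58, and 4.92 CPM under mAb-DXd/IMQ. The highest treated tumor was just below the lowest saline tumor. Tg, the thyroglobulin gene, had the highest log2 difference at 1.19 (FDR 0.214). The median of the 7 tested genes was 0.16, but its sign was not stable: it was -0.26 without mAb-DXd/IMQ replicate 3, -0.06 without mAb-DXd/IMQ replicate 4, and -0.35 with a filter of 1 CPM in 4 tumors.

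Beyond the family, the table assigns 576 genes to the C2H2 zinc finger type, and 463 of them were tested. Of these 463, 4 were called lower and 0 higher, beside 96 lower and 101 higher of all 18511 tested genes. The 4 include Glis3, which this comparison chose, so nothing is read from that count. The median log2 difference was -0.04, beside 0.02 over all tested genes. The 4 were Glis3, Klf13 at -0.68, Klf3 at -0.66, and Egr2 at -0.70, with FDRs of 0.0201, 0.028, and 0.0427 in edgeR's test for the last 3, which were named after their values were seen. These 3 calls were lost without saline replicate 3, where 1 gene of all tested was called lower. Without saline replicate 4 or without mAb-DXd/IMQ replicate 4, 2 genes of all tested were called lower. Nothing is read from Glis3 staying among the lower genes in these fits, because this comparison chose it.

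The profile of Glis3 over the 8 tumors was compared with 14645 genes of at least 1 CPM on average, by the root mean square difference of log2 CPM after each gene was centred on its own mean. Hhip ranked at place 25 with a difference of 0.252, whereas Gli3 ranked at 5059, Ptch1 at 5791, Glis2 at 7450, and Gli2 at 11963. Glis3 was chosen for its step between the groups, so genes with a similar step rank high in this comparison.

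Markers of 9 cell types were summed in each tumor to show what else differed between the groups. The keratins Krt8 and Krt18 of the tumor epithelium were abundant in all tumors, at 493 to 887 CPM and 590 to 971 CPM. None of the 9 summed levels passed a two-sided exact permutation test, with p = 0.429 for tumor epithelium, 0.943 for fibroblasts, 0.114 for pericytes and smooth muscle, 0.171 for endothelium, 0.143 for epidermis and hair follicle, 0.543 for adipocytes, 0.114 for Schwann cells, 0.114 for leukocytes, and 0.714 for skeletal muscle. After Benjamini-Hochberg adjustment the lowest was 0.309. The mean log2 CPM of the markers, which weights each gene alike, gave p = 0.0286 in the exact permutation test for leukocytes (difference -0.87) and for Schwann cells (difference 0.94), and both were 0.129 after the same adjustment over the 9 lists. Among tested markers, the log2 difference was positive for 8 of 8 of tumor epithelium, 8 of 8 of pericytes and smooth muscle, 8 of 8 of endothelium, 8 of 9 of epidermis and hair follicle, 6 of 10 of fibroblasts, and 5 of 6 of Schwann cells. It was negative for 7 of 7 of adipocytes, 9 of 9 of leukocytes, and 6 of 8 of skeletal muscle. No marker of these lists had 0 counts in all tumors.

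Of 10 leukocyte markers 9 were tested, and 2 were called lower and 0 higher, beside shares of 0.519% lower and 0.546% higher over all tested genes. Cd4 and Cd8a, which mark the main T cell classes, had log2 differences of -1.91 and -1.22, each with an FDR of 0.0201 in edgeR's test. Each call held in 5 of the 8 leave-one-out fits. Cd8a had 28.2, 37.4, 38.5, and 34.1 CPM under saline against 18.8, 15.1, 11.1, and 14.2 CPM under mAb-DXd/IMQ. The summed leukocyte level, led by Csf1r at a mean of 232 CPM, was 382, 925, 573, and 672 CPM under saline against 438, 374, 523, and 343 CPM under mAb-DXd/IMQ. These sums overlapped, because saline replicate 1 was as low as the treated tumors.

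Schwann cell markers included 1 called gene, the receptor gene Ngfr, with a log2 difference of 2.58 and an FDR of 0.0201 in edgeR's test, a call that held in 7 of the 8 leave-one-out fits. Of 8 markers 6 were tested, and 1 was called higher and 0 lower, beside 0.546% higher and 0.519% lower over all tested genes. Sox10 and Cdh19 had too few counts. The sum, led by Mbp at a mean of 39.8 CPM, was 80.6, 66.6, 81.2, and 86.2 CPM under saline against 106, 113, 80.6, and 97.1 CPM under mAb-DXd/IMQ. The groups overlapped through mAb-DXd/IMQ replicate 3. The higher mean of the sum came from Ngfr, which had a mean of 3.94 CPM under saline against 23.7 CPM under mAb-DXd/IMQ, whereas Mbp had 43.9 CPM against 35.7 CPM (FDR 0.203 in edgeR's test), with groups that did not overlap. The part of leukocytes, Schwann cells, or any other cell type in the levels of Glis3 and Hhip was not tested.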

How the data were processed

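The gene count table deposited by the authors was used without realignment. The submitters' processing notes name HISAT2, HISAT, TopHat2, and the build mm39. The coordinates of the table, however, match GRCm38: of 54409 gene IDs, 53462 (98.3%) had the same coordinates in GENCODE M21, including all 8 members. The aligner version, the counting tool, and the strandedness are not given in the sources used here, and the label protocol names both a strand-specific and a non-specific option. Opposite-strand neighbours such as Arhgap9 at Gli1 and Pam16 at Glis2 therefore leave their counts uncertain.

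Genes were filtered with filterByExpr of edgeR 4.0.16 (minimum count 10, minimum total 15), scaled by TMM, and tested with the edgeR quasi-likelihood F-test in R 4.3.3 with Benjamini-Hochberg adjustment. Called genes had a log2 fold change of more than 0.58 in size and an FDR below 0.05. Limma 3.58.1 and DESeq2 1.42.0 were used as alternatives, with other scalings, filters, a replicate block, a gene length offset, and the omission of each tumor. Standard errors were approximated from the F statistic. Figures were drawn with Python 3.11.15 and matplotlib 3.10.9. The code was tested on simulated data with known differences.

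Members and lists were chosen with earlier results of these data known. Genes of the pathway were named by a rule: the always-named genes, the called genes, and the highest and lowest gene of each list, of which some were left out of the text. Levels under 3 counts were treated as below the floor. Within each group no library was a duplicate of another, with a chi-square per degree of freedom of 33.7 or more for every pair. Pairs across the groups were not compared. Promoter sequences are from RefSeq GRCm38.p6.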

Additional observations from a re-analysis of the deposited data

Results flagged for a closer look

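Of 84 groups of 4 tumors checked, 5 held a tumor that stood apart from the other 3, where 4.2 would be reached by chance.
Gli1, mAb-DXd/IMQ replicate 3: 1.55 CPM, others 0.309 to 0.428 CPM, gap share 0.904.
Gli2, saline replicate 3: 2.2 CPM, others 1.32 to 1.42 CPM, gap share 0.886.
Ptch1, mAb-DXd/IMQ replicate 3: 26.8 CPM, others 23.1 to 23.7 CPM, gap share 0.843.
Sufu, saline replicate 4: 55.3 CPM, others 59.8 to 60.4 CPM, gap share 0.873.
Mturn, mAb-DXd/IMQ replicate 2: 10 CPM, others 8.24 to 8.32 CPM, gap share 0.952.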

How the results depend on the processing

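The 197 genes past the thresholds (101 higher, 96 lower) became 203 with RLE scaling, 218 with upper-quartile scaling (145 higher, 73 lower), 194 with library size only (118 higher, 76 lower), 358 without a filter (167 higher, 191 lower), 233 with a filter of 1 CPM in 4 tumors, 784 with DESeq2 (438 higher, 346 lower), 174 with limma-voom, 7 with glmTreat (7 higher, 0 lower), 122 with a gene length offset (63 higher, 59 lower), and 246 without a fold change limit. A block for the replicate number gave 14 genes (10 higher, 4 lower), and 14 with the length offset (10 higher, 4 lower). The replicate numbers share only a name: the correlations of same-numbered tumors were -0.17, -0.0546, 0.0794, and -0.0672, only saline replicate 3 correlated best with its own number, and the cause was not tested. Leaving out each tumor gave 10 to 203 genes: 10 without saline replicate 3 (9 higher, 1 lower), 11 without saline replicate 4 (9 higher, 2 lower), 12 without mAb-DXd/IMQ replicate 4 (10 higher, 2 lower), 76 without mAb-DXd/IMQ replicate 2 (38 higher, 38 lower), 88 without mAb-DXd/IMQ replicate 3 (52 higher, 36 lower), and 111 without saline replicate 2 (49 higher, 62 lower). The members past the thresholds, 2, became 0 with glmTreat, 1 with the replicate block, 1 with the length offset, 1 with both, and 1 to 2 with a tumor left out, and wherever 1 was lost it was Hhip. The 2 called hedgehog genes became 3 with DESeq2, 0 with glmTreat, the block, the length offset, or both, and 0 to 1 with a tumor left out. The GLIS list, with 0 called, had 1 with DESeq2 and 0 to 1 with a tumor left out (1 without mAb-DXd/IMQ replicate 1), and the cilium list had 0 in all settings. The log2 difference of Glis3 lay between -1.24 and -1.06 in all 20 settings, and that of Hhip between -1.07 and -0.84. These are values without a test. Bcl2 was called in 10, Prkacb in 9, Cd4 in 14, Cd8a in 14, and Ngfr in 16 of the 20. With a tumor left out, Dhh ranged from 0.01 to 0.74 and Boc from 1.03 to 2.05. The sign of small differences turned when a tumor was left out: Ihh ranged from -0.54 to 0.49 (0.07, 0.49, 0.22, and 0.11 were positive), Cdon from -0.71 to 0.08, and Gas1 from -0.28 to 0.17 (0.09, 0.17, and 0.17 were positive). The fibroblast sum differed by 44.6 CPM and ranged from -843 to 846 (-750, -432, -160, and -843 were negative). The skeletal muscle sum differed by -40.5 CPM and ranged from -112 to 22.5 (22.5 and 4.26 were positive), and its mean log2 CPM differed by 0.0955. An exact permutation test gave p = 0.0286 for the mean log2 CPM of leukocyte and of Schwann cell markers, for the Schwann cell sum with library size only and without mAb-DXd/IMQ replicate 3, for the leukocyte sum without saline replicate 1, for the endothelium sum without saline replicate 2, and for the epidermis and hair follicle sum without mAb-DXd/IMQ replicate 4. After Benjamini-Hochberg adjustment over the 9 lists these were 0.129 to 0.257.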
